A study of Homo sapiens with 12 samples.

Results

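The genes described here are 32 genes of the unfolded protein response and of protein folding in the endoplasmic reticulum (ER), chosen by name and matched by gene identifier. All 32 were listed in all 12 libraries and all 32 were among the 15990 genes tested, of 21508 genes listed in any library. They fall into 18 chaperones and folding factors, 4 genes of ER-associated degradation, 4 genes for the stress sensors and the transcription factor XBP1, and 6 genes of the PERK and ATF4 branch.

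The ER folds secreted proteins, and a beta cell, which secretes insulin, sends a large part of its protein synthesis through it. When unfolded protein builds up, the sensors IRE1, PERK and ATF6 are activated: IRE1 splices XBP1 mRNA, ATF6 is cleaved into a transcription factor that raises chaperone genes, and PERK lowers translation while favouring that of ATF4. Cells that secrete heavily also keep many of these chaperones high without acute stress.

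The study used EndoC-βH1, a human beta cell line derived from immortalised fetal pancreas, and measured polyA-enriched RNA by sequencing in 4 groups of 3 replicates. TUNAR, a transcript annotated as a long noncoding RNA, was targeted by siRNAs in 6 of the samples, and the other 6 received a negative control siRNA. From 2 days after transfection each siRNA arm was kept for 24 hours in either DMSO or 5 µM of the GSK3 inhibitor labelled 1-AKP, so that every group was transfected and the DMSO groups are the controls. All cells came from a single line, replicates 1 and 2 from passage 74 and replicate 3 from passage 75. Nothing in the labels says that the replicates were separate experiments, so the spread behind every p-value is that of these samples and may be technical.

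The expected counts summed to 15653786 to 15986834 per library. TUNAR itself stood at 14.4, 19.9 and 17.6 CPM (normalised counts scaled per library size) in replicates 1, 2 and 3 of the negative siRNA group in DMSO, and at 3.83, 7.20 and 8.09 CPM after its own siRNAs. Under 1-AKP the values were 27.9, 31.0 and 30.8 CPM for negative siRNA, and 6.95, 10.4 and 13.6 CPM for TUNAR siRNAs. The TUNAR siRNA libraries were below the negative siRNA libraries under either treatment, by log2 -1.49 ± 0.18 (SE) averaged over the treatments (edgeR adjusted p = 0.0101). Adjusted p-values are from edgeR's quasi-likelihood test with Benjamini-Hochberg adjustment over all tested genes. Within a treatment the adjusted p was 0.248 with DMSO and 0.159 with 1-AKP, or 0.00248 and 0.000674 with the replicate number as a block, a fit that compares libraries of the same number. INS, the insulin gene, had the highest level of all tested genes with DMSO and negative siRNA (24250 ± 2927 FPKM, fragments per kilobase of transcript and library size, SD, n = 3). Markers of fibroblasts summed to 0.46 to 1.22 FPKM and of endothelial cells to 0.35 to 0.54 FPKM, against 26400 to 35040 FPKM for 10 beta cell markers, most of it INS. Duct markers summed to 33.9 to 46.4 FPKM, acinar markers to 13.7 to 22.1 FPKM and blood cell markers to 11.7 to 29.1 FPKM. Listed in no library were PRSS1, CELA3A and PNLIP (acinar), CD3E and HBB (blood) and LUM (fibroblast). Those sums rest on the other markers of each list. Replicate 1 stood apart in every group: a chi-square test of its counts against another replicate of its group gave 7.35 to 11.6 per degree of freedom, against 2.35 to 2.80 between replicates 2 and 3.

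In the negative siRNA group with DMSO, the general chaperones and disulfide isomerases were among the most abundant transcripts of these cells. Several co-chaperones and the stress sensors were much lower. On the scale of FPKM, which is per transcript length and so allows genes to be compared, CALR, the calcium-binding lectin chaperone calreticulin, was at 581.6 ± 36.3 (SD, n = 3) in negative siRNA with DMSO, rank 47 of the tested genes. HSP90B1, the ER member of the HSP90 family, was at 555.9 ± 38.6 FPKM (rank 51), within the spread of CALR. P4HB, the main protein disulfide isomerase, followed at 423.6 ± 8.1 FPKM (rank 92) and ERO1B, the oxidase that recharges disulfide isomerases and is prominent in beta cells, at 404.3 ± 25.0 FPKM (rank 99), also within 1 SD of each other. HSPA5, the ER HSP70 chaperone also called BiP, was at 215.5 ± 7.6 FPKM, near CANX (231.4 ± 5.8 FPKM) and PDIA6 (227.3 ± 5.6 FPKM). Other folding genes were far lower, such as DNAJB11 at 60.6 ± 2.1 FPKM (rank 1109), ERO1A at 27.5 ± 0.4 FPKM (rank 2972), DNAJB9 at 26.0 ± 1.7 FPKM (rank 3155), CRELD2 at 21.9 ± 0.7 FPKM (rank 3813) and DNAJC3 at 16.7 ± 1.4 FPKM (rank 4915). ATF4 at 164.7 ± 2.5 FPKM and XBP1 at 106.6 ± 4.2 FPKM were the highest of the regulators. The sensor genes were low: ATF6 was at 11.6 ± 1.1 FPKM, EIF2AK3, which encodes PERK, at 6.58 ± 0.02 FPKM, and ERN1, which encodes IRE1, at 2.92 ± 0.54 FPKM. CHAC1, a target of ATF4, was at 3.42 ± 1.78 FPKM. Together the 32 genes took 1.175% ± 0.017 (SD, n = 3) of all counts in negative siRNA with DMSO, of which the 18 folding genes took 1.060% ± 0.016. Splicing of XBP1 and phosphorylation or cleavage of the sensors were not measured, since the files give totals per gene.

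Several of these genes share a promoter sequence, shown here because it is the known binding element of ATF6 with its partner NF-Y. The ER stress response element was searched as CCAAT, 9 bases of any kind and CCACG, on both strands, in the 300 bases around RefSeq gene starts (GRCh38.p14, 250 before to 50 after). Of 31 members with a window in the table, 8 held it (25.8%), against 17 of the 12444 tested genes with a window (0.137%). The matches follow, with CCAAT and CCACG in capitals.

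HSPA5: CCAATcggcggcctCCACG
HSP90B1, distal: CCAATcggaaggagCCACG
HSP90B1, proximal: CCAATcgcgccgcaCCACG
CALR: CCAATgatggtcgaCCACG
CANX: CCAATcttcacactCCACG
PDIA6: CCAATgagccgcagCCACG
CRELD2: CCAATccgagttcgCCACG
ERO1B: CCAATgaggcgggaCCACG
XBP1: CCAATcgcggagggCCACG

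The HSPA5 match lies at chr9:125241391-125241409 on the minus strand, 66 to 48 bases before the start. The HSP90B1 matches lie at chr12:103930216-103930234 on the plus strand and chr12:103930321-103930339 on the minus strand, 194 to 176 and 89 to 71 bases before the start. The others lie at chr19:12938384-12938402 on the minus strand for CALR, chr5:179698778-179698796 on the plus strand for CANX, chr2:10812853-10812871 on the minus strand for PDIA6, chr22:49918554-49918572 on the minus strand for CRELD2, chr1:236282183-236282201 on the plus strand for ERO1B and chr22:28800603-28800621 on the minus strand for XBP1. The 9 bases between the capitals differ in every match, and the CCACG end is nearer the gene in HSPA5, PDIA6, XBP1, CANX and the distal HSP90B1 match. CCAAT alone, which the longer element contains, was in 24 of 31 member windows (77.4%) and 42.5% of the tested genes' windows. The core of the element read by spliced XBP1, TGACGTGG, was found in 1 member, HYOU1, at chr11:119057386-119057393 on the minus strand (1.19% of tested genes hold it). Of the amino acid response elements read by ATF4, TGATGAAAC was found in ASNS at chr7:97872468-97872476 on the minus strand (0.153% of tested genes), while TGATGCAAT and TGATGCAAA were found in no member window. A match is a stretch of letters and was not tested for binding.

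With 1-AKP, most of the chaperone genes were modestly higher, and ERO1B and HERPUD1 were lower. Averaged over both siRNAs, 18 of the 32 members rose, 2 fell and 12 did not pass an adjusted p of 0.05, where 9.97% of all tested genes rose and 9.25% fell. The median member was at log2 0.16, against -0.003 over all tested genes. The rise was in the folding arm (14 of 18 rose, 1 fell) and in the PERK and ATF4 arm (3 of 6 rose), with 1 of the 4 sensor and XBP1 genes rising and 1 of the 4 degradation genes falling. Sizes were small, from log2 0.13 to 0.33 among those that rose, or 9.57% to 26.0%. In bulk RNA, a change in the share of cells that express a gene and a change in RNA per cell cannot be told apart. The plot of members in each library shows 15 of them.

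**Figure D1:**
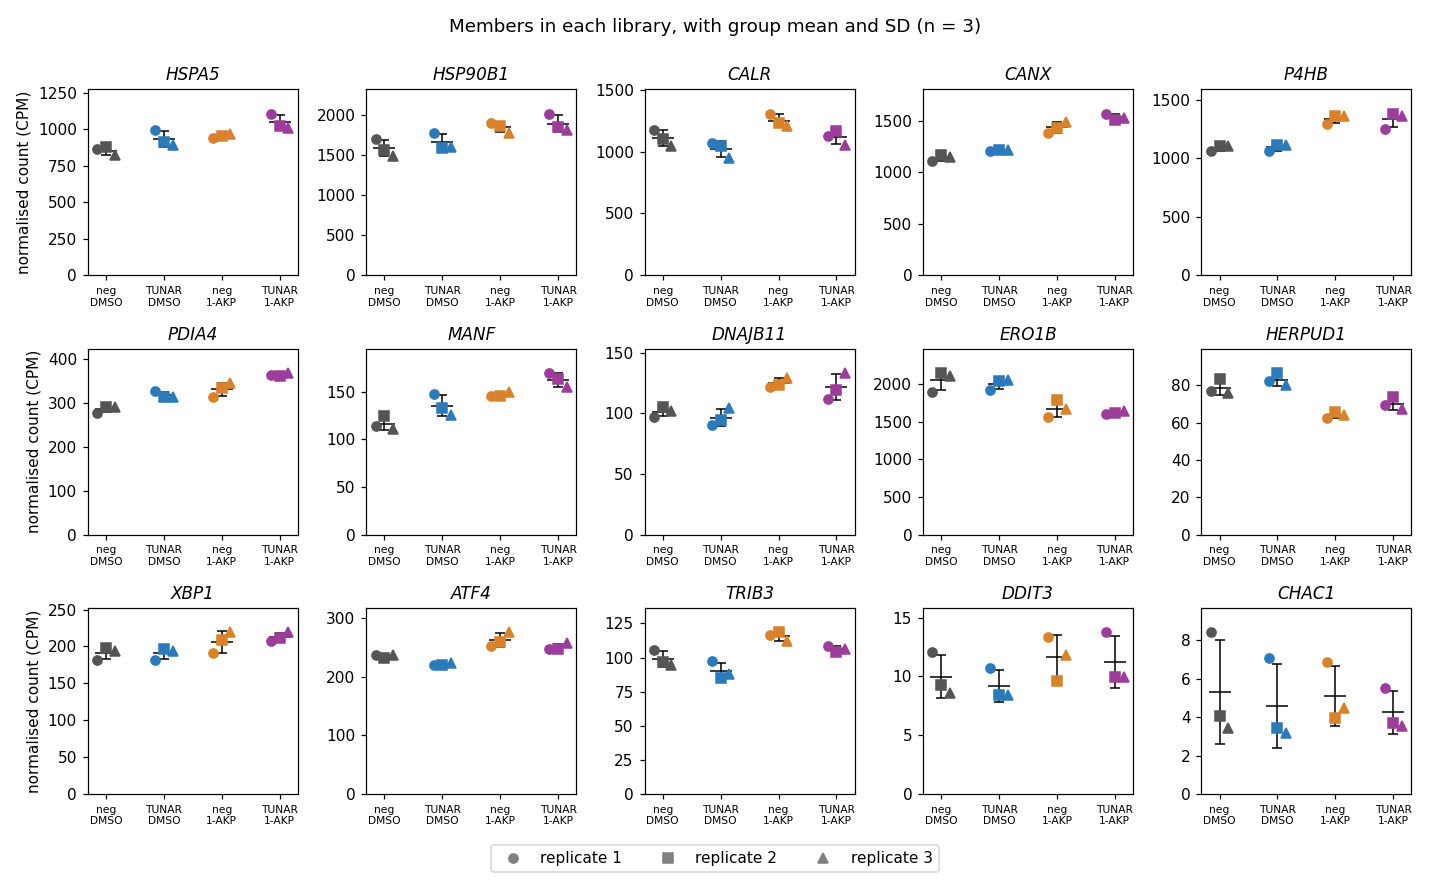
Normalised counts (CPM, linear axis from 0) of 15 members in each of the 12 libraries, by group. Symbols mark the replicate, and the black dash and bar give the mean and SD of 3 replicates. CANX and P4HB are higher and ERO1B and HERPUD1 lower in every 1-AKP library than in every DMSO library of the same siRNA, and CHAC1 is highest in replicate 1 of every group.

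Values per library are CPM after scaling by trimmed mean of M values, for replicates 1, 2 and 3 in that order. CANX, the membrane-bound lectin chaperone calnexin, was at 1108, 1173 and 1152 CPM with DMSO and 1382, 1436 and 1493 CPM with 1-AKP under negative siRNA, and at 1206, 1217 and 1220 CPM against 1570, 1511 and 1524 CPM under TUNAR siRNAs. Every 1-AKP library was above every DMSO library, and the mean rise was log2 0.33 ± 0.027 (SE, adjusted p = 7.48e-06). CALR, its soluble relative, was at 1175, 1100 and 1046 CPM with DMSO and 1306, 1232 and 1206 CPM with 1-AKP under negative siRNA, where the groups did not overlap, and at 1066, 1049 and 951 CPM against 1124, 1170 and 1056 CPM under TUNAR siRNAs, where they did. The mean rise of CALR was log2 0.15 ± 0.041 (adjusted p = 0.0229), and neither siRNA alone passed.

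HSPA5 was at 866, 874 and 820.3 CPM with DMSO and 939, 953 and 963 CPM with 1-AKP under negative siRNA, and at 995, 915 and 890.2 CPM against 1105, 1024 and 1008 CPM under TUNAR siRNAs. Its groups did not overlap under either siRNA, with a mean rise of log2 0.16 ± 0.035 (adjusted p = 0.00673), although the adjusted p was 0.0807 and 0.0674 within the siRNAs. HSP90B1 was at 1702, 1570 and 1496 CPM with DMSO and 1898, 1869 and 1782 CPM with 1-AKP under negative siRNA, and at 1777, 1592 and 1608 CPM against 2018, 1848 and 1816 CPM under TUNAR siRNAs. The groups again did not overlap, with replicate 1 the highest in each, and the mean rise was log2 0.20 ± 0.042 (adjusted p = 0.00456). HYOU1, a large HSP70 relative that acts as exchange factor for BiP, was at 469, 444 and 451 CPM with DMSO and 540.0, 534 and 535 CPM with 1-AKP under negative siRNA, and at 516, 473 and 469 CPM against 582, 551 and 551 CPM under TUNAR siRNAs. All 1-AKP libraries of HYOU1 were above the DMSO libraries of their siRNA (log2 0.22 ± 0.032, adjusted p = 0.000428). DNAJB11, a co-chaperone of BiP, was at 97.3, 105 and 102 CPM with DMSO and 122, 123 and 129 CPM with 1-AKP under negative siRNA, and at 90.2, 94.9 and 104 CPM against 112, 119 and 133 CPM under TUNAR siRNAs. It was lowest in replicate 1 of every group and its groups did not overlap (log2 0.32 ± 0.049, adjusted p = 0.000697). MANF, a secreted ER stress protein that binds BiP, was at 114, 124 and 111 CPM with DMSO and 146, 146 and 150.3 CPM with 1-AKP under negative siRNA, and at 148, 133 and 126 CPM against 169.8, 163 and 155 CPM under TUNAR siRNAs. Its groups did not overlap either, and the mean rise was log2 0.30 ± 0.044 (adjusted p = 0.000533).

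The disulfide isomerases form and rearrange disulfide bonds in proteins such as proinsulin. P4HB was at 1062, 1108 and 1103 CPM with DMSO and 1297, 1364 and 1359 CPM with 1-AKP under negative siRNA, and at 1060, 1110 and 1113 CPM against 1254, 1381 and 1365 CPM under TUNAR siRNAs. Every 1-AKP library was above every DMSO library (log2 0.29 ± 0.031, adjusted p = 6.34e-05). PDIA3, the isomerase that works with CALR and CANX on glycoproteins, was at 849, 855 and 812 CPM with DMSO and 941, 948 and 955 CPM with 1-AKP under negative siRNA, and at 967, 922 and 889 CPM against 1046, 1026 and 999.5 CPM under TUNAR siRNAs. Its groups were apart under each siRNA (log2 0.16 ± 0.028, adjusted p = 0.00176). PDIA4 was at 278, 289.6 and 290.4 CPM with DMSO and 314, 333 and 345 CPM with 1-AKP under negative siRNA, and at 326, 313 and 314 CPM against 364, 360.3 and 368 CPM under TUNAR siRNAs. The rise of PDIA4, whose groups were also apart, was log2 0.20 ± 0.030 (adjusted p = 0.000514). PDIA6 was at 513, 543 and 530.5 CPM with DMSO and 594, 601 and 631 CPM with 1-AKP under negative siRNA, and at 579, 558 and 574 CPM against 655, 607.5 and 640.3 CPM under TUNAR siRNAs. Its groups did not overlap and it rose by log2 0.18 ± 0.030 (adjusted p = 0.00123).

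Of the other folding genes, SEC61B, a subunit of the channel through which proteins enter the ER, was at 56.0, 62.1 and 64.2 CPM with DMSO and 64.0, 71.9 and 78.4 CPM with 1-AKP under negative siRNA, and at 53.9, 58.4 and 65.3 CPM against 63.7, 76.5 and 74.5 CPM under TUNAR siRNAs. The groups overlapped and replicate 1 was lowest in each (log2 0.25 ± 0.068, adjusted p = 0.0193). Every 1-AKP library was above the DMSO library of its own number, as for 18.95% of all tested genes. SDF2L1, a partner of ER co-chaperones, rose by log2 0.24 ± 0.066 (adjusted p = 0.0252) and CRELD2, a secreted ER stress protein, by log2 0.21 ± 0.050 (adjusted p = 0.00954). The folding genes that did not pass were DNAJC3, an inhibitor of PERK and co-chaperone of BiP (log2 0.17 ± 0.060, adjusted p = 0.0633), DNAJB9, a co-chaperone that represses IRE1 (0.09 ± 0.057, 0.318), and ERO1A, the widely expressed paralog of ERO1B (0.07 ± 0.044, 0.291).

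ERO1B moved the other way from the isomerases that it oxidises. It was at 1894, 2146 and 2103 CPM with DMSO and 1556, 1783 and 1671 CPM with 1-AKP under negative siRNA, and at 1925, 2041 and 2049 CPM against 1599, 1620 and 1638 CPM under TUNAR siRNAs. No 1-AKP library reached a DMSO library, and ERO1B fell by 0.30 on the log2 scale (SE 0.040, adjusted p = 0.000276). HERPUD1, a membrane scaffold of the degradation complex and a strong target of ER stress in other settings, was at 76.8, 83.5 and 76.1 CPM with DMSO and 62.4, 65.9 and 64.0 CPM with 1-AKP under negative siRNA, and at 82.2, 86.6 and 80.0 CPM against 69.4, 73.7 and 67.1 CPM under TUNAR siRNAs. Its groups did not overlap and it fell by 0.27 on the log2 scale (SE 0.040, adjusted p = 0.000535). The other degradation genes did not pass: EDEM1, a lectin that extracts misfolded glycoproteins, was at log2 0.12 ± 0.046 (adjusted p = 0.0916), SEL1L, the adaptor of the HRD1 ligase, at -0.02 ± 0.11 (0.918), and SYVN1, which encodes HRD1, at -0.03 ± 0.040 (0.724).

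Among the regulators, XBP1 was at 182, 198 and 194 CPM with DMSO and 191, 209 and 219 CPM with 1-AKP under negative siRNA, where the groups overlapped, and at 182, 197 and 194 CPM against 207, 212 and 219 CPM under TUNAR siRNAs, where they did not. Its mean rise of log2 0.13 ± 0.040 passed narrowly (adjusted p = 0.0351) and did not pass when counts were scaled by library size alone (0.058) or in limma on log2(FPKM + 1) (0.0656). The sensor genes did not pass, with ATF6 at log2 -0.03 ± 0.066 (adjusted p = 0.78), ERN1 at -0.04 ± 0.14 (0.886) and EIF2AK3 at 0.08 ± 0.067 (0.454). ATF4, the transcription factor translated when PERK or a related kinase is active, was at 237, 231 and 237 CPM with DMSO and 251, 259 and 276 CPM with 1-AKP under negative siRNA, and at 219.5, 219.8 and 224 CPM against 248, 247 and 257 CPM under TUNAR siRNAs. Its groups did not overlap, and the mRNA rose by log2 0.17 ± 0.029 (adjusted p = 0.00155). TRIB3, a pseudokinase that ATF4 and CHOP induce, was at 106, 96.8 and 94.8 CPM with DMSO and 116, 119 and 112 CPM with 1-AKP under negative siRNA, and at 97.1, 84.7 and 87.6 CPM against 109, 104 and 106 CPM under TUNAR siRNAs. TRIB3 rose by log2 0.23 ± 0.042 (adjusted p = 0.00198), with no overlap, and ASNS, asparagine synthetase, by log2 0.15 ± 0.035 (adjusted p = 0.0113).

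DDIT3, which encodes CHOP, the factor tied to cell death in prolonged stress, was at 12.1, 9.28 and 8.58 CPM with DMSO and 13.4, 9.65 and 11.8 CPM with 1-AKP under negative siRNA, and at 10.8, 8.45 and 8.40 CPM against 13.8, 9.95 and 9.96 CPM under TUNAR siRNAs. DDIT3 was higher with 1-AKP in 6 of 6 same-numbered pairs, as were 18.95% of all tested genes, and the numbers were not taken to pair samples here. The groups overlapped, and replicate 1 was the highest in each (log2 0.25 ± 0.12, adjusted p = 0.186). CHAC1, a glutathione-degrading enzyme, was at log2 -0.08 ± 0.28 (adjusted p = 0.892), and PPP1R15A, the phosphatase subunit that reverses the action of PERK, at 0.06 ± 0.18 (0.885).

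**Figure D2:**
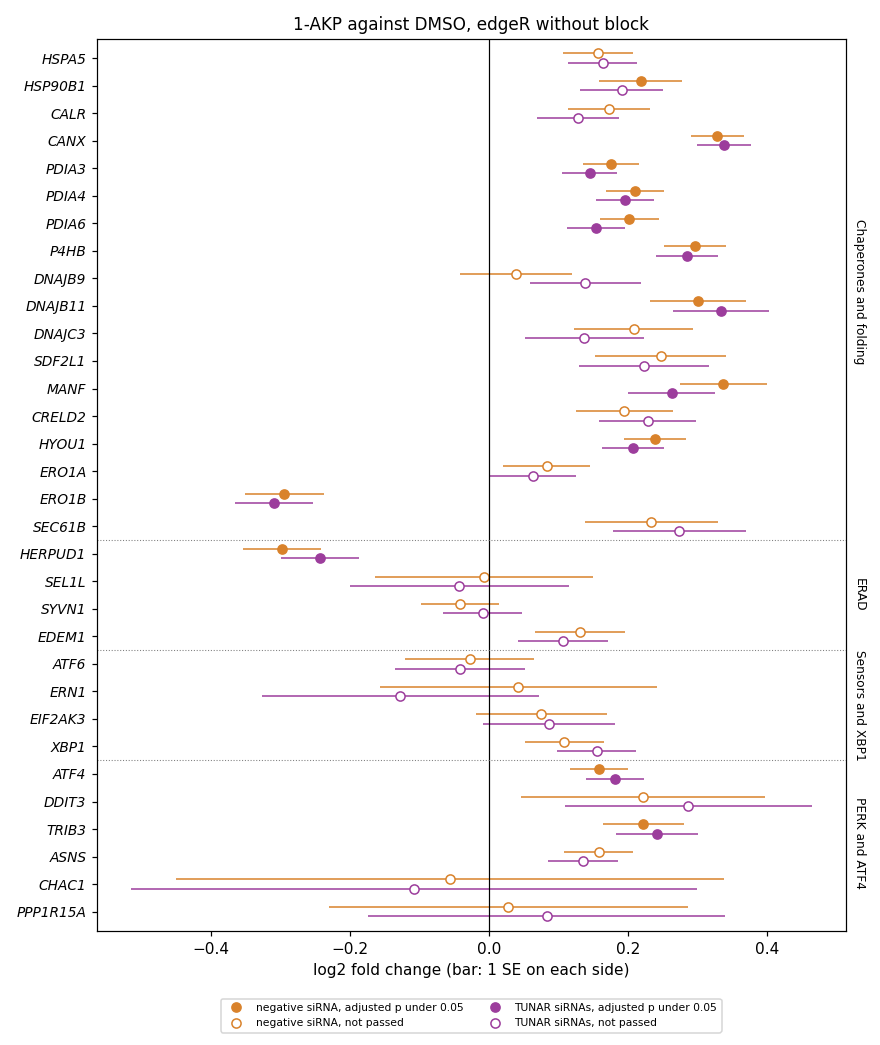
Fold change of each of the 32 members with 1-AKP against DMSO (log2, bars of 1 SE on each side) under negative siRNA and under TUNAR siRNAs, by arm, with filled points where the adjusted p is under 0.05. Under negative siRNA 11 members rose and 2 fell, and under TUNAR siRNAs 10 rose and 2 fell.

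Members called within each siRNA moved in the same directions as in the average. That average is the mean of the 2 changes within the siRNAs, so this is not a separate check. Under negative siRNA 11 members rose and 2 fell (3.54% and 3.76% of all tested genes), and under TUNAR siRNAs 10 rose and 2 fell (3.72% and 3.79%). The 10 members called under TUNAR siRNAs were all among the 11 called under negative siRNA, which added HSP90B1, and ERO1B and HERPUD1 fell in both. The 1-AKP and DMSO groups did not overlap for 17 higher and 2 lower members under negative siRNA, where 13.4% and 12.5% of all tested genes were so placed, and for 15 higher and 2 lower members under TUNAR siRNAs (12.1% and 12%). The members' share of all counts was 1.289% ± 0.014 with 1-AKP against 1.175% ± 0.017 with DMSO under negative siRNA, and 1.310% ± 0.022 against 1.204% ± 0.022 under TUNAR siRNAs. Restricting the fit to passage 74 left 8 called members averaged over the siRNAs (CANX, P4HB, DNAJB11, MANF, PDIA4 and HYOU1 higher, ERO1B and HERPUD1 lower), 0 under negative siRNA and 1 under TUNAR siRNAs, with every member on the same side of 0 for the averaged change. Over all genes this fit called 850, 51 and 67 of 16038, against 3074, 1168 and 1201 of 15990 with all libraries. Leaving out single libraries gave 6 to 14 called members under negative siRNA and 3 to 12 under TUNAR siRNAs. Over all genes these fits called 492 to 1389 and 511 to 1284, against 1168 and 1201 with all libraries. The fewest genes were called without replicate 3 of negative siRNA with 1-AKP (492) and replicate 2 of TUNAR siRNAs with DMSO (511). The largest losses of members came without replicate 3 (6) or 2 (7) of negative siRNA with 1-AKP and replicate 3 of negative siRNA with DMSO (8). Under TUNAR siRNAs they came without replicate 2 (3) or 3 (5) of TUNAR siRNAs with DMSO and replicate 3 of TUNAR siRNAs with 1-AKP (5).

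No member responded differently to 1-AKP under the 2 siRNA conditions by the test of that difference. The interaction of siRNA and treatment was called for 0 of 32 members by edgeR and by DESeq2, and for 0.0% of all tested genes. An unadjusted edgeR p under 0.05 was found for 0 members and for 170 of the 15990 tested genes. Among the 20 members that changed with 1-AKP the estimated difference ran from log2 -0.07 to 0.05, with 95% confidence bounds from -0.31 to 0.33. Bounds of that width still hold differences as large as the 1-AKP response itself.

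The 8 members whose window held the ER stress response element all changed with 1-AKP: 7 rose and ERO1B fell, where 9.97% of all tested genes rose and 9.25% fell. Of these, 7 belong to the folding arm, in which 14 of 18 rose and 1 fell. Of the 23 members with a window and no match, 10 rose, 1 fell and 12 did not pass. The median change was close in both sets, at log2 0.169 for the 8 members with the element and 0.147 for these 23. Of the other 9 tested genes with the element, 2 rose, ALG12, a mannosyltransferase of N-glycan assembly (log2 0.19 ± 0.036, adjusted p = 0.00267), and SERP1, a translocon-associated stress protein (0.14 ± 0.041, 0.0307), and 7 did not pass.

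Genes of neighbouring steps, given as lists of the pathway's other genes, were also higher with 1-AKP where they serve entry, glycosylation and exit, to be read against 9.97% rising and 9.25% falling among all tested genes. Of 17 translocon and signal peptidase genes 11 rose and 0 fell, among them SEC11C, a signal peptidase subunit (log2 0.29 ± 0.025), SEC61A1, the channel itself (0.29 ± 0.032), and SSR2 (0.27 ± 0.030). Of 12 genes of N-glycosylation and glycoprotein folding 8 rose and 0 fell, led by the oligosaccharyltransferase subunits RPN2 (0.25 ± 0.024), DDOST (0.24 ± 0.030) and OSTC (0.30 ± 0.038). Of 14 genes of COPII transport and cargo retrieval 7 rose and 0 fell, including the cargo receptors LMAN1 (0.29 ± 0.027) and SURF4 (0.38 ± 0.058). Their medians were log2 0.13, 0.22 and 0.14. The other oxidoreductases and chaperones had 3 of 15 rising (TXNDC11, PPIB and TXNDC5) and the other degradation genes 1 rising, SELENOS (0.35 ± 0.038), and 1 falling, UBXN4 (-0.09 ± 0.031), of 15. Other ATF4 targets were divided, with 4 of 18 rising, such as the amino acid transporter subunit SLC3A2 (0.35 ± 0.041) and the serine pathway enzyme SHMT2 (0.33 ± 0.062), and 3 falling, VLDLR (-0.27 ± 0.040), CEBPB (-0.75 ± 0.15) and CTH (-0.65 ± 0.14). Among 13 other genes of the sensors and their processing, MBTPS1, the protease that cleaves ATF6, fell by 0.22 on the log2 scale (SE 0.030, adjusted p = 0.000353), while 4 rose, including EIF2S1, the target of PERK (0.26 ± 0.040), and NFE2L2 (0.41 ± 0.064). Of 15 cytosolic heat shock genes 3 rose, the largest HSP90AB1 and STIP1 at log2 0.18, and 0 fell. In the same libraries 5 of 10 beta cell markers fell, with NKX2-2 at log2 -0.84 ± 0.067, IAPP at -0.80 ± 0.15 and NKX6-1 at -0.50 ± 0.052, and their part in the chaperone results was not tested. The median of the 10 beta cell markers was log2 -0.279. Their summed level, most of which is INS, was 27420 to 33530 FPKM with DMSO and 27110 to 32310 FPKM with 1-AKP under negative siRNA.

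With TUNAR siRNAs, several folding genes stood slightly higher and CALR lower, at sizes that edgeR called only once the replicate number, or for 3 members the passage, was a term of the fit or replicate 1 was left out. Without the block, edgeR called 0 of 32 members with DMSO (0.0125% of all tested genes), 0 with 1-AKP (0.0%) and 0 averaged over both treatments (0.175%). Members with an unadjusted p under 0.05 numbered 7, 7 and 12, of 776, 743 and 1392 such genes among the 15990 tested. DESeq2 called 0, 0 and 3 members (PDIA3, PDIA4 and MANF), of 19, 9 and 153 genes called, and limma on log2(FPKM + 1) called 0 in each. Same-numbered libraries of the siRNA groups deviated together, so the blocked fit is given beside these. With the block 6 members rose and 2 fell with DMSO (1.71% and 1.34% of all tested genes), 4 rose and 1 fell with 1-AKP (1.44% and 1.33%), and 8 rose and 3 fell averaged over both (4.4% and 4.18%). Of the members higher in 1 treatment or the other, HSPA5, PDIA3 and PDIA4 were called in both, HYOU1, MANF and PDIA6 with DMSO alone and CANX with 1-AKP alone, and the interaction was called for none of them. With the block and 1 replicate left out, whichever it was, 3 members were called with DMSO and 1 or 2 with 1-AKP. Over all genes these fits called 122 to 327 with DMSO and 130 to 306 with 1-AKP, of 15995 to 16059 tested. The blocked limma fit on FPKM called 1 member in each, of 134 and 118 genes called.

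**Figure D3:**
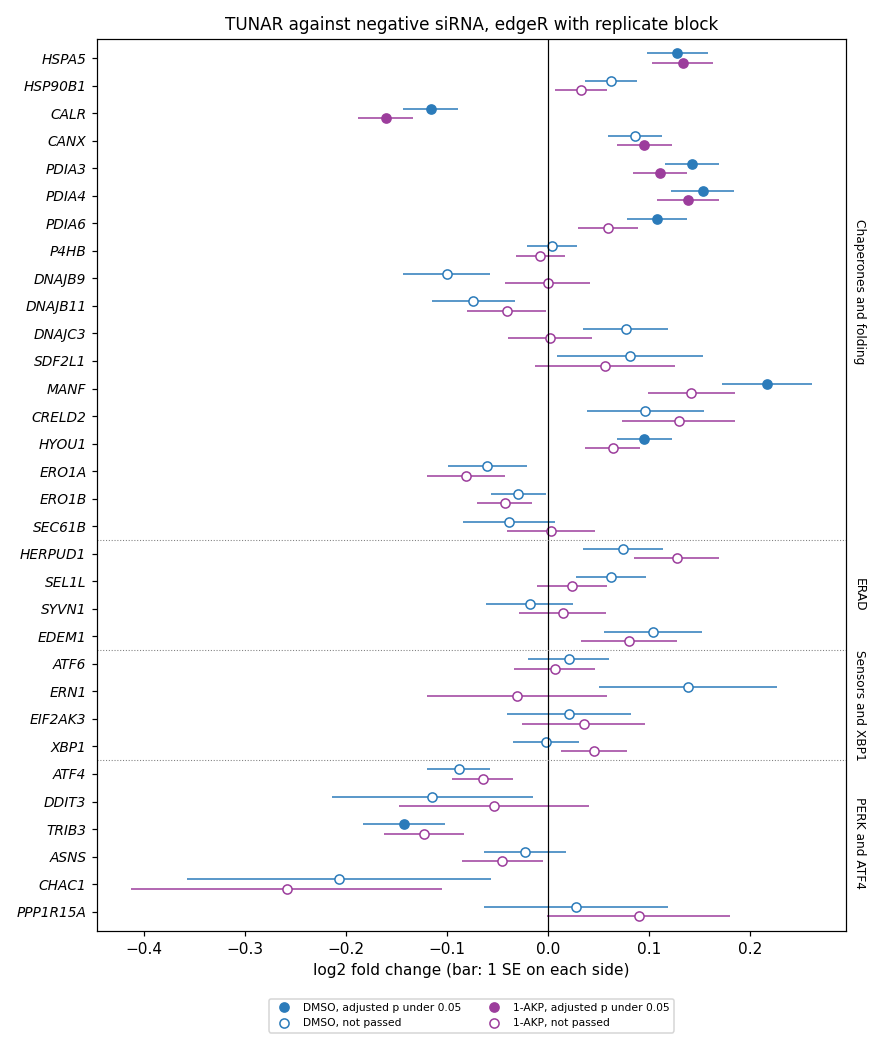
Fold change of each of the 32 members with TUNAR siRNAs against negative siRNA (log2, bars of 1 SE on each side) with DMSO and with 1-AKP, in the fit with the replicate number as a block, with filled points where the adjusted p is under 0.05. HSPA5, PDIA3 and PDIA4 lie to the right and CALR to the left of 0 in both treatments, and the scale reaches log2 0.22 at MANF.

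The averaged values below are from the blocked fit. MANF, at 111 to 124 CPM with negative siRNA and 126 to 148 CPM with TUNAR siRNAs under DMSO, was higher by log2 0.18 ± 0.031 (adjusted p = 0.000305). PDIA4, at 278 to 290.4 CPM against 313 to 326 CPM under DMSO, was higher by log2 0.15 ± 0.022 (adjusted p = 1.32e-05), and its groups were apart in both treatments. PDIA3 was higher by log2 0.13 ± 0.019 (adjusted p = 1.09e-05) and HSPA5 by log2 0.13 ± 0.021 (adjusted p = 8.92e-05), each in 6 of 6 same-numbered pairs and with groups that did not overlap. CANX (log2 0.09 ± 0.019), PDIA6 (0.08 ± 0.021), HYOU1 (0.08 ± 0.020) and HERPUD1 (0.10 ± 0.029, adjusted p = 0.0214) were also higher in 6 of 6 pairs. CALR was lower in 6 of 6 pairs, by log2 -0.14 ± 0.019 (adjusted p = 4.32e-06): under 1-AKP its libraries stood at 1056 to 1170 CPM with TUNAR siRNAs and 1206 to 1306 CPM with negative siRNA, and under DMSO the groups overlapped. TRIB3 (log2 -0.13 ± 0.028, adjusted p = 0.00167) and ATF4 (-0.08 ± 0.022, adjusted p = 0.0211) were lower in 6 of 6 pairs too. P4HB, XBP1, SEC61B and the sensors ATF6, ERN1 and EIF2AK3 did not pass in the blocked fits, with P4HB at log2 -0.0015 ± 0.017 and XBP1 at 0.02 ± 0.023. Over all 32 members 10 were higher and 4 lower in 6 of 6 pairs, against 6.66% and 6.798% of all tested genes. Marker genes moved in the same blocked fit: of 10 beta cell markers 3 fell, IAPP (log2 -0.35 ± 0.033), NKX6-1 (-0.20 ± 0.030) and PDX1 (-0.14 ± 0.021), while INS (0.07 ± 0.019), CHGA (0.06 ± 0.018) and SLC30A8 (0.22 ± 0.044) were among those that rose, with a list median of -0.018. Of 2 duct markers tested, KRT19 rose (0.18 ± 0.033) and the other, at log2 0.05, did not pass. Of 2 blood cell markers tested, CD68, a macrophage marker, fell (-0.46 ± 0.055). PTPRC went the other way, at log2 0.23, and did not pass (edgeR adjusted p = 0.671). The part of these in the members' differences was not tested. PPP1R15B, the constitutive counterpart of PPP1R15A, fell by 0.20 on the log2 scale also without the block (SE 0.028, adjusted p = 0.0157).

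The averaged changes with 1-AKP and, from the blocked fit, with TUNAR siRNAs are given side by side for P4HB and the 11 members called in the latter. These comparisons share libraries. P4HB was at log2 0.29 with 1-AKP and at -0.0015 with TUNAR siRNAs. CALR was at log2 0.15 with 1-AKP and -0.14 with TUNAR siRNAs, ATF4 at 0.17 and -0.08, TRIB3 at 0.23 and -0.13, and HERPUD1 at -0.27 and 0.10. Positive in both were CANX (0.33 and 0.09), MANF (0.30 and 0.18), HYOU1 (0.22 and 0.08), PDIA4 (0.20 and 0.15), PDIA6 (0.18 and 0.08), HSPA5 (0.16 and 0.13) and PDIA3 (0.16 and 0.13).

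The replicate number was the largest source of variance for 10 members (31.25%, against 36.48% of all tested genes). Among them were 6 of the 10 genes in the sensor and PERK arms. Splitting the variance of log2 CPM over the 12 libraries, the median member had 55.0% with treatment, 18.9% with replicate number and 4.9% with siRNA, where the medians over all tested genes were 16.1%, 26.5% and 4.2%. Treatment was the largest source for 21 of 32 members (65.62%, against 27.52% of all tested genes). P4HB had 92.5% of its variance with treatment and CANX 90.1%, while HSPA5, PDIA3, PDIA4 and CALR had 31.8% to 34.5% with siRNA.

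**Figure D4:**
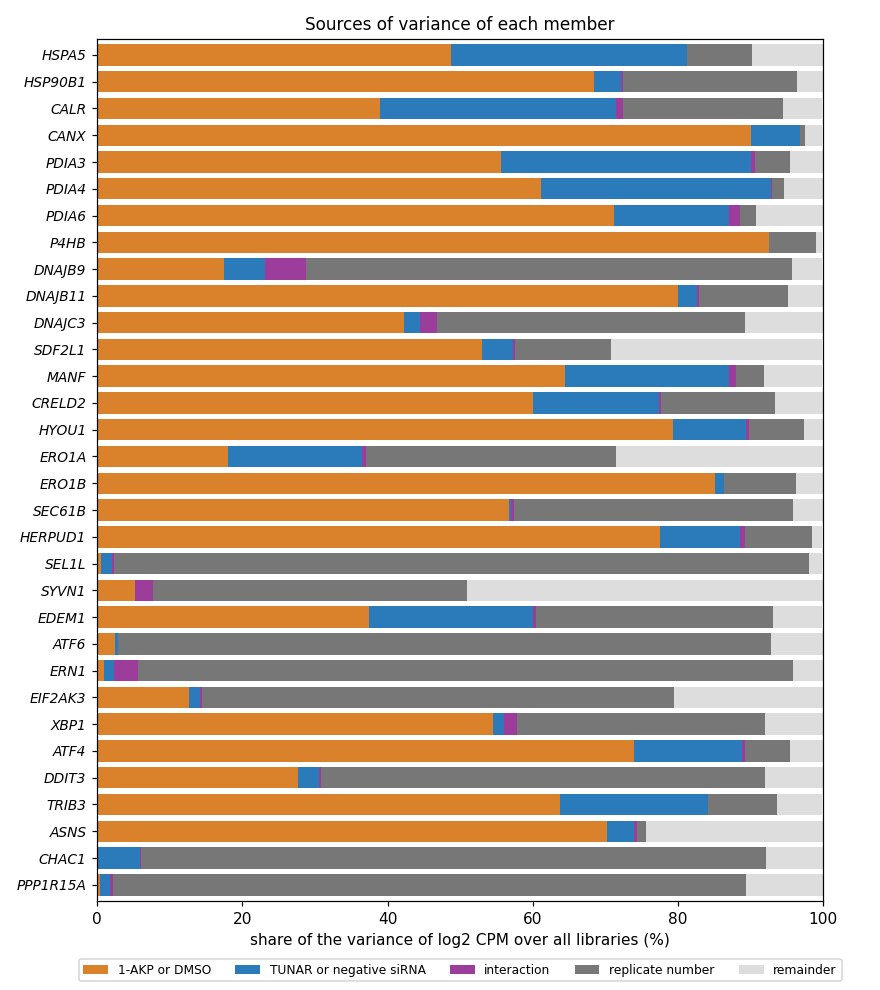
Share of each member's variance of log2 CPM over 12 libraries (%) that goes with treatment, siRNA, their interaction, the replicate number and the remainder. The chaperones in the upper rows are mostly treatment (92.5% in P4HB), and SEL1L, ATF6, ERN1, CHAC1 and PPP1R15A are mostly replicate number (86.2% to 95.8%).

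The 10 members with replicate number as the largest source were DNAJB9, DNAJC3, ERO1A, SEL1L, ATF6, ERN1, EIF2AK3, DDIT3, CHAC1 and PPP1R15A. Averaged over the 4 groups, CHAC1 was at 6.99 CPM in replicate 1 and 3.78 and 3.66 CPM in replicates 2 and 3. PPP1R15A was at 18.8 against 12.6 and 12.6 CPM, ERN1 at 14.7 against 10.1 and 11.4 CPM and DDIT3 at 12.5 against 9.33 and 9.69 CPM. SEL1L was at 175.6 against 136.0 and 135.7 CPM and ATF6 at 96.6 against 83.7 and 82.7 CPM. Replicate 1 was the highest in all 4 groups for 10 members (31.25%, against 16.22% of all tested genes) and the lowest in all 4 for 7 (21.88%, against 17.14%), among them P4HB, ERO1B, XBP1 and EIF2AK3. SST, the hormone of delta cells, was at 28.1 to 33.5 CPM in replicate 1 and 3.80 to 6.52 CPM in replicates 2 and 3. The summed markers of islet cells other than beta cells ran from 6.27 to 53.8 FPKM. SST is 1 of these markers and most of the sum, so the sum is not a separate observation. Of the 6 markers 5 were listed (PPY in no library) and 2 had enough counts to be tested. CCNB1, a mitotic cyclin named here after its values were seen, was at 154 to 172 CPM in replicate 1 and 91.6 to 113 CPM in the others. Their part in these differences was not tested. Without replicate 1 of all groups, 23 members were called with 1-AKP averaged over the siRNAs (21 rose, 2 fell), 20 under negative siRNA and 19 under TUNAR siRNAs, and 3 with TUNAR siRNAs averaged over the treatments. More genes were called over the whole table too, 4626, 2559, 2769 and 270 of 15995, against 3074, 1168, 1201 and 28 of 15990 with all libraries.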

How the data were processed

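PolyA-enriched RNA of 12 EndoC-βH1 samples was sequenced. Per the file headers, the authors deposited an expected count and an FPKM value (fragments per kilobase of transcript, scaled to library size) for each gene and sample. The submitters' processing notes name RSEM, Bowtie, BWA, GRCh37 and hg19, with no versions. Expected counts (35.3% to 36.0% not whole) were rounded, and a gene absent from a sample's file was taken as 0. Of 21508 identifiers 21386 matched a RefSeq symbol. The labels do not name a strand-specific library, so reads of overlapping antisense genes cannot be told apart, and reads of near-identical copies are divided by estimation.

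Genes with enough counts (edgeR filter, minimum count 10, minimum total 15) numbered 15990 and held 99.9% of counts. TMM factors were 0.990 to 1.014. edgeR 4.0.16 (R 4.3.3) fitted 4 group means to all 12 libraries with robust quasi-likelihood and 8 residual degrees of freedom, and p-values were adjusted over all tested genes by Benjamini-Hochberg. FPKM served to compare levels between genes. The coefficient of variation between replicates was 8.74%, or 2.86% with the replicate block. The fits were tested on simulated data. Alternatives were the replicate block, passage, leaving out libraries, DESeq2 1.42.0, other scalings, no filter and limma 3.58.1 on log2(FPKM + 1) or + 0.1.

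Same-numbered libraries were checked for pairing by correlating their deviations from the group means, with a minimum of 0.1. For the siRNA comparisons these were 0.376, 0.178 and 0.217 (DMSO) and 0.416, 0.162 and 0.286 (1-AKP), so the numbers were taken to pair the samples there. For 1-AKP against DMSO replicate 2 gave 0.0871 and 0.0634, so they were not. No 2 libraries of a group agreed within sampling noise.

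The members, companion lists and tests were chosen with earlier results of these data known. Values of every library are given for the 16 members with the lowest adjusted p in any comparison, with or without the block, and for HSPA5, HSP90B1, XBP1, ATF4 and DDIT3. Up to 3 genes are named per companion list, by lowest p. An exception is the other ATF4 targets with 1-AKP, where all 3 that fell are named beside SLC3A2 and SHMT2 of the 4 that rose. The removal of replicate 1 of all groups was chosen after seeing the data. Promoter windows came from a set of RefSeq gene starts that held none for PDIA3, and windows on chr8 were left out.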

Additional observations from a re-analysis of the deposited data

How the results depend on the processing

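All 224 fold changes of members kept their direction wherever they were called, and the count of called members changed as follows. For 1-AKP the replicate block gave 22 members under negative siRNA (13 without) and 23 under TUNAR siRNAs (12 without), where the numbers did not meet the pairing rule. Over all genes it called 4285 and 4335 of 15990, against 1168 and 1201 without. Averaged over the siRNAs it called 25 members (23 rose, 2 fell) and 6343 genes, against 20 and 3074, and the members added were DNAJC3 (adjusted p = 1.05e-05), DDIT3 (0.00284), EDEM1 (0.00488), DNAJB9 (0.0187) and ERO1A (0.0364). With the block and 1 replicate left out it gave 18 to 21 under either siRNA. Genes called were 2706 to 3824 under negative siRNA and 2695 to 3978 under TUNAR siRNAs. Passage 74 alone, with 2 libraries a group, gave 0 and 1, and 8 averaged over the siRNAs (20 in all libraries). Over all genes it called 51, 67 and 850 of 16038. Leaving out single libraries gave 6 to 14, 3 to 12 and 16 to 20 members, and 492 to 1389, 511 to 1284 and 2401 to 3362 of all genes. Without replicate 1 of all groups the counts were 20 and 19, of 2559 and 2769 genes called. Under TUNAR siRNAs limma with the block on log2(FPKM + 1) gave 20, of 3745 genes called. For TUNAR siRNAs, edgeR on all libraries with group means alone called 0 members in each comparison. The block gave 8 with DMSO, 5 with 1-AKP and 11 averaged. With the block and 1 replicate left out these were 3 to 3, 1 to 2 and 7 to 11, of 122 to 327, 130 to 306 and 716 to 920 genes called. The blocked limma fit gave 1, 1 and 9, of 134, 118 and 750 genes called. Averaged over treatments, passage as a covariate gave 3, DESeq2 gave 3, and removal of replicate 1 of all groups gave 3. Genes called over the whole table in these fits were 108, 153 and 270. Leaving out single libraries without the block kept 0 in each siRNA comparison, and the interaction was 0 under every alternative run. Over all genes, the blocked siRNA calls divided into 273 higher and 215 lower (DMSO), 231 and 212 (1-AKP) and 704 and 669 (averaged) in edgeR, but 48 and 86, 45 and 73, and 321 and 429 in limma on FPKM. The cause was not tested. Depth was alike in all libraries and its effect on these counts was not tested.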
